A study of Mus musculus with 47 samples.

Results

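Luminal progenitor (LP) cells sorted from mice given estradiol, progesterone and mifepristone (RU486) were set against LP cells from sham-treated mice. The comparison took every LP library labelled EP_RU486 and every LP library labelled sham, which gave 8 of the 47 libraries of the series: 4 EP+RU486 mice (304, 308, 324 and 329) and 4 sham mice (301, 305, 310 and 326). The series holds LP, luminal mature and mammary stem cell fractions of ovariectomized FVB mice after 14 days of treatment, in 12 groups from 20 mice. Further LP groups of 4 mice each were used for orientation: estradiol, progesterone and telapristone acetate (EP+TPA, mice 312, 323, 328 and 336), and estradiol with progesterone (EP, mice 306, 311, 322 and 327). All mice were ovariectomized, the sham group included, so the sham state is a gland without ovarian hormones. Doses are not in the labels, and neither is what the sham treatment consisted of. No group received estradiol alone or RU486 alone, so the parts of the hormones and of the antagonist in a difference from sham cannot be told apart. Each library of a comparison came from its own mouse, and the cells were sorted by flow cytometry with markers that the labels do not name.

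Estradiol and progesterone act on the mammary epithelium through nuclear receptors found mainly in mature, hormone-sensing luminal cells. Those cells signal to their neighbours with secreted factors such as RANKL (Tnfsf11), Wnt4, R-spondin 1 (Rspo1) and amphiregulin (Areg). Luminal progenitors give rise to the milk-producing alveolar cells, carry Kit and Elf5, and for the most part lack the progesterone receptor. Mifepristone blocks the progesterone receptor and also binds the glucocorticoid receptor; telapristone acetate is another steroidal antagonist of the progesterone receptor. The comparison asks what remains of the hormone response, or is new, against the hormone-free gland when the progesterone receptor is blocked.

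Levels are on the FPKM scale (sequenced fragments adjusted for transcript length and for library size), rescaled between libraries, and are written as rescaled FPKM. Folds are differences of mean log2(value + 1) with the standard error (SE) of the fit, and are compressed for genes near 0. A gene was called when its Benjamini-Hochberg adjusted p in limma was under 0.05 over all 11402 genes tested. The totals of the 16 LP libraries ran from 297710 to 358375 and genes above 1 from 10195 to 11315, while the reads behind a value are unknown. The scaling factors were 1.1138 to 1.1693 in EP+RU486 mice and 0.9601 to 1.076 in sham mice, without overlap, so the balance of higher and lower calls depends on the scaling. Markers of LP cells fitted the label: the stem cell factor receptor gene Kit was at 34.6 to 53.8 in EP+RU486 mice and 62.2 to 87.3 in sham mice, and Csn3, kappa-casein, at 1979 to 2797 and 2401 to 3436 in the same groups. All 22 LP markers passed the filter on low values. Their summed level was 13130 to 15970 in EP+RU486 mice and 16150 to 28900 in sham mice. Of these markers, 1 was called higher (Itga2) and 2 lower (Krt8 and Krt18), against 4.24% higher and 6.38% lower among all genes. With 1 mouse left out, 0 to 1 were higher and 1 to 3 lower. In bulk samples, fewer cells of a type and less RNA per cell cannot be told apart.

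With RU486 present, the LP cells did not have the sham transcriptome. Of 11402 genes, 1210 (10.6%) were called between EP+RU486 and sham: 483 higher (4.24%) and 727 lower (6.38%). At least 2-fold changes were fewer among the higher genes, with 88 higher and 256 lower. The median log2 fold of all genes was -0.007. Without rescaling the count was 1744 with 1315 higher and 429 lower, around a median of 0.142, and with upper-quartile factors it was 1186 with 606 higher and 580 lower. The count was 653 without sham mouse 310, 695 without RU486 mouse 324, 704 without RU486 mouse 308 and 799 without sham mouse 301. Against EP alone, 2379 genes (20.9%) were called. Between EP+RU486 and EP+TPA, limma called 0 genes (0%). An unadjusted p under 0.05 was found for 199 genes, fewer than the 5% expected where no gene differs. The p values of this comparison were therefore cautious, and 0 calls does not show that the 2 groups are alike.

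**Figure D1:**
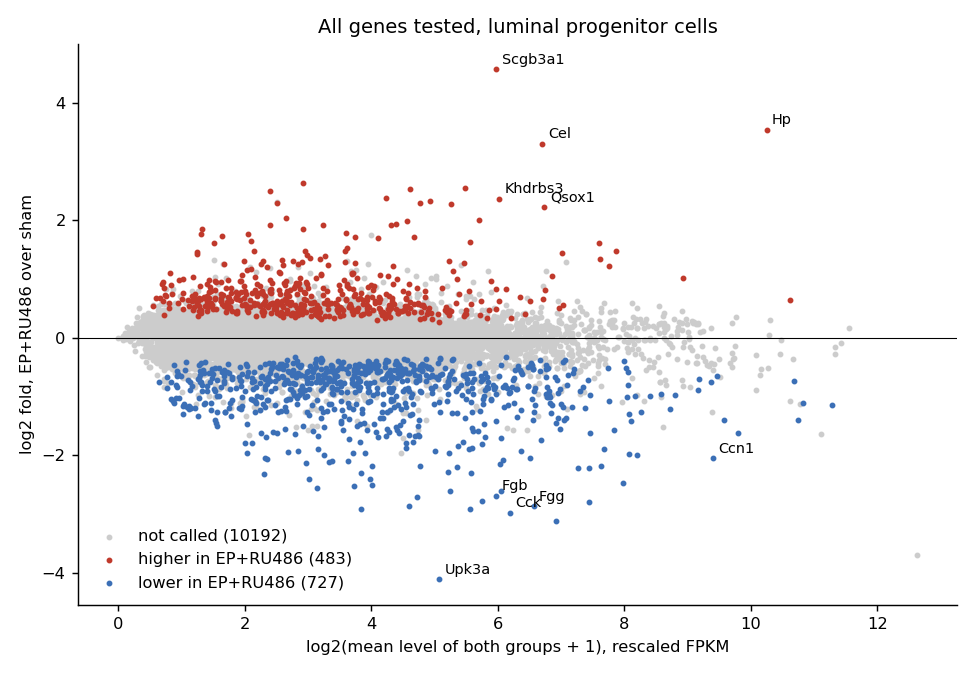
Log2 fold of EP+RU486 over sham (vertical axis) against the log2 mean level of both groups in rescaled FPKM (horizontal axis) for all 11402 genes tested. The 483 genes called higher are red and the 727 called lower are blue; Scgb3a1 is the highest point and Upk3a the lowest called one.

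The firmest rises included several genes of secreted proteins. Haptoglobin (Hp), the plasma protein that binds free haemoglobin, was at 2209, 1877, 2299 and 2608 in EP+RU486 mice and at 206, 188, 169 and 203 in sham mice. Every EP+RU486 value lay far above every sham value, and the log2 fold was 3.54 (SE 0.17, adjusted p = 9.01e-09). Scgb3a1, a small secretoglobin of epithelial secretions, had the largest fitted rise of the leading genes. It was at 92.5, 111, 106 and 170 in EP+RU486 mice and between 3.81 and 4.09 in sham mice, a log2 fold of 4.57 (SE 0.32, adjusted p = 8.62e-07). In 3 of the sham mice it lay within 10% of the shared lowest value of 3.66, so the size of this fold rests on the bottom of the scale. Stc1, the secreted glycoprotein hormone stanniocalcin 1, stood at 47.1, 40.6, 54.0 and 36.7 in EP+RU486 mice against 8.32, 10.7, 6.50 and 7.62 in sham mice (log2 fold 2.30, SE 0.20, adjusted p = 4.35e-06). Cel, the bile-salt-stimulated lipase that is also found in milk, averaged 189 in EP+RU486 mice and 18.2 in sham mice (log2 fold 3.30, SE 0.34, adjusted p = 4.02e-05).

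Genes of other roles stood in the same leading 15. Khdrbs3, an RNA-binding regulator of splicing, averaged 108 in EP+RU486 mice and 20.1 in sham mice, and its log2 fold of 2.37 had an SE of 0.14 (adjusted p = 5.53e-08). Stat5a, the transcription factor of prolactin signalling, was at 92.4, 75.1, 92.4 and 72.0 in EP+RU486 mice and at 17.1, 23.6, 18.5 and 20.1 in sham mice (log2 fold 2.01, SE 0.19, adjusted p = 1.15e-05). Qsox1, a secreted sulfhydryl oxidase that forms disulfide bonds, averaged 176 in EP+RU486 mice and 35.9 in sham mice. F3, tissue factor, which starts blood coagulation, averaged 344 in EP+RU486 mice and 122 in sham mice. Isyna1, which makes inositol phosphate, averaged 70.7 in EP+RU486 mice and 21.98 in sham mice. The membrane glycoprotein Cd200 averaged 189 in EP+RU486 mice and 68.7 in sham mice. The collagen genes Col9a1 and Col4a5, the sulfotransferase gene Chst8, Sectm1b and Gdpd2 completed the 15. None of these groups overlapped, which the rule for choosing them required; among all genes, 10.3% were higher without overlap and 12.5% lower without overlap.

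The 15 leading falls differed in role. Fgg and Fgb, which encode the gamma and beta chains of fibrinogen, start 42139 bases apart on chromosome 3 (RefSeq, GRCm38.p6). Fgg was at 21.1, 21.1, 21.5 and 20.2 in EP+RU486 mice against 133, 158, 121 and 256 in sham mice (log2 fold -2.87, SE 0.17, adjusted p = 5.53e-08). Fgb was at 13.9 to 14.1 in EP+RU486 mice and 60.8 to 219 in sham mice (log2 fold -2.69, SE 0.27, adjusted p = 2.27e-05). The EP+RU486 values of both genes hardly varied. The deposited Fgb value was within 10% of the lowest of its set, 13.9, in 17 of 22 libraries, all 4 EP+RU486 mice included, and this shared bottom of the scale is not a measured amount. For Fgg, only the EP+RU486 and EP+TPA mice lay within 10% of the lowest value, 8 of 22 libraries in all. Fam25c and Upk3a, the urothelial protein uroplakin 3a, sat at a shared bottom in the same way as Fgb. Their means were 17.3 and 2.00 in EP+RU486 mice against 114 and 63.6 in sham mice, and the log2 folds were -2.60 and -4.11. For Fgb, Fam25c and Upk3a, what lies below the bottom of the scale cannot be read, and the folds are those of the deposited scale. The size of the Fgg fold may rest on the bottom of its scale as well.

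Cck, the gut and brain peptide cholecystokinin, was at 14.0, 18.7, 9.94 and 19.8 in EP+RU486 mice and at 176, 118, 92.2 and 131 in sham mice (log2 fold -2.98, SE 0.25, adjusted p = 4.35e-06). Cdkn1a, which encodes the cyclin-dependent kinase inhibitor p21, was at 29.5, 34.0, 35.8 and 38.1 in EP+RU486 mice and at 138, 146, 131 and 165 in sham mice (log2 fold -2.05, SE 0.18, adjusted p = 4.35e-06). Ccn1, a secreted matricellular protein also called Cyr61, was at 248, 187, 342 and 274 in EP+RU486 mice and at 1147, 1011, 1376 and 803 in sham mice (log2 fold -2.04, SE 0.20, adjusted p = 1.62e-05). In each of these genes the highest EP+RU486 mouse lay below the lowest sham mouse. Ramp1, the partner of the calcitonin receptor-like receptor, averaged 10.6 in EP+RU486 mice and 38.0 in sham mice. Sfrp2, a secreted Wnt inhibitor, averaged 1.57 in EP+RU486 mice and 12.5 in sham mice. Cyb5a, the electron carrier cytochrome b5, averaged 71.4 in EP+RU486 mice and 324 in sham mice. Cdc42ep1, Clip4, Tspan1, Nabp1 and Fam110a completed the 15 lower genes. Clip4 was within 10% of its lowest value in 3 EP+RU486 mice and Tspan1 in 2, so the size of their folds may rest on the bottom of the scale.

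**Figure D2:**
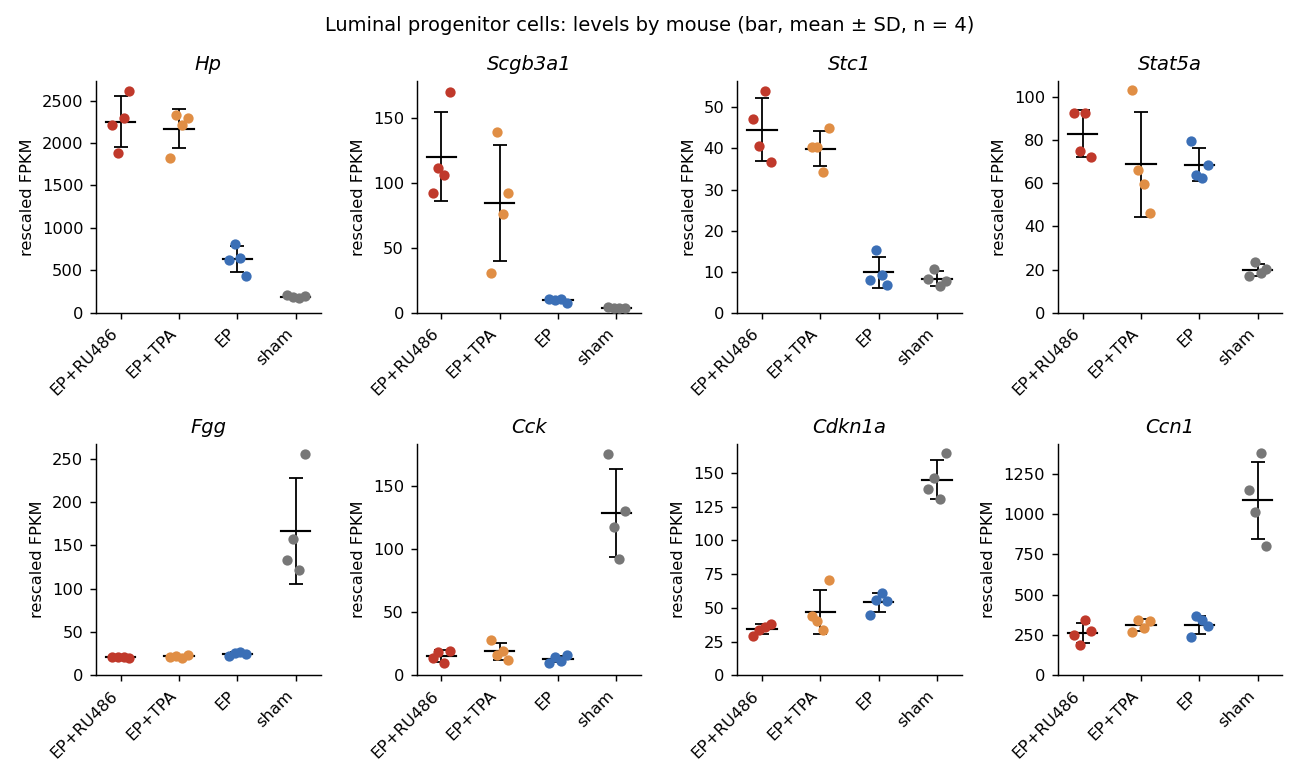
Levels by mouse (points, rescaled FPKM) with mean and SD for 4 leading higher genes (top) and 4 leading lower genes (bottom) in EP+RU486, EP+TPA, EP and sham LP cells, 4 mice each. Hp, Scgb3a1 and Stc1 stand higher in both antagonist groups than in EP (in EP+RU486 mice 2248, 120 and 44.6, in EP mice 629, 9.67 and 9.80), and EP is near sham for Stc1 and above sham for Hp and Scgb3a1, whereas Stat5a stands high in all 3 treated groups and Fgg, Cck, Cdkn1a and Ccn1 stand low in all 3.

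The leading genes took 2 courses with respect to EP. Of the 15 higher genes, 12 were also called higher in EP+RU486 than in EP, as were 9.02% of all genes. Of the 15 lower genes, 4 were called against EP, 1 of them higher (Ramp1) and 3 lower (Cdkn1a, Clip4 and Tspan1), where 11.8% of all genes were lower. Against EP+TPA, the log2 folds of the 30 genes ran from -0.50 to 0.65, and the 95% interval lay within 1 log2 unit of 0 for 29 of them; the exception was Scgb3a1. All of these comparisons share the EP+RU486 or the sham mice, so they are given side by side and not as separate evidence.

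**Figure D3:**
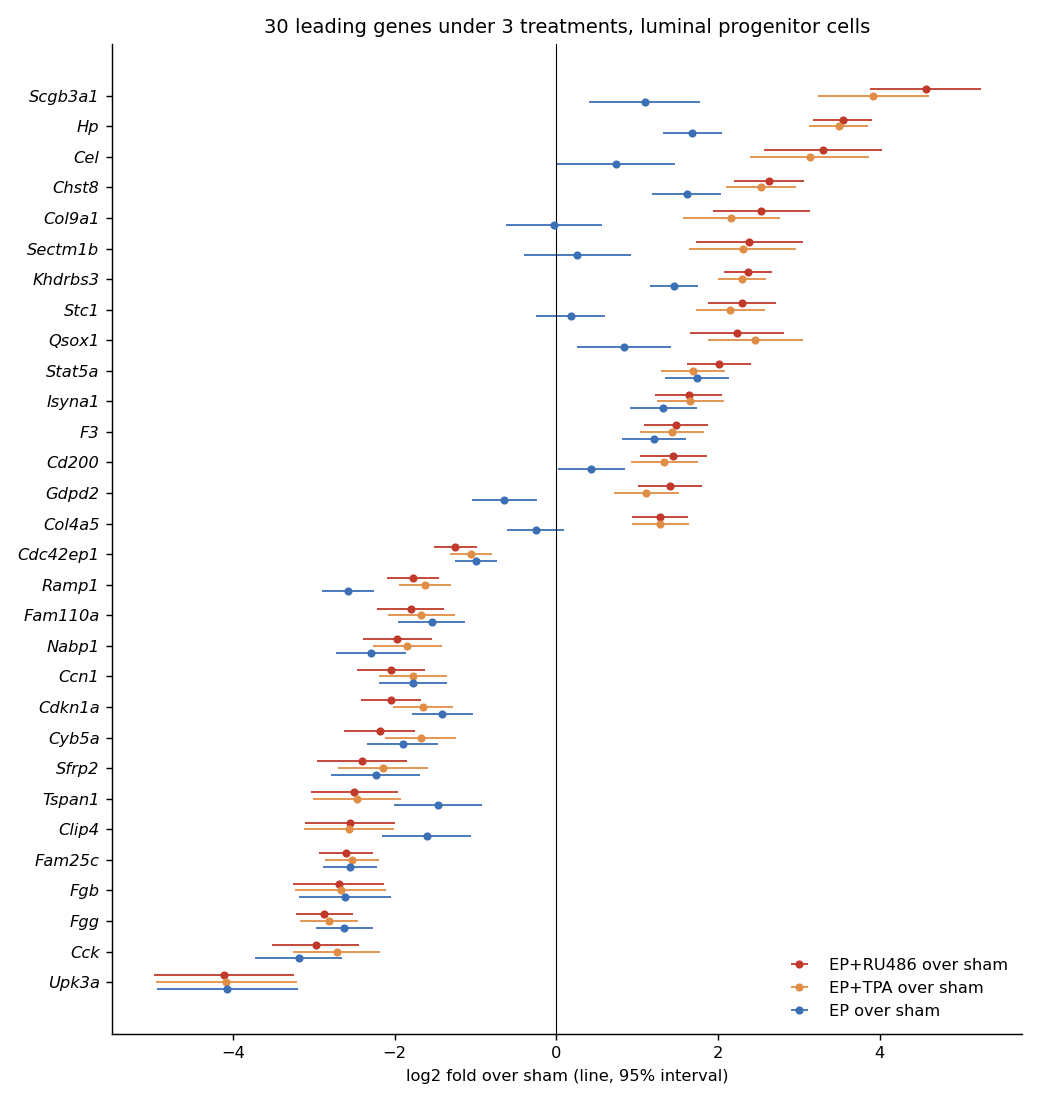
Log2 folds over sham with 95% intervals for the 30 leading genes under EP+RU486, EP+TPA and EP. The intervals of EP+RU486 and EP+TPA overlap for every gene, and EP lies near 0 for Col9a1, Stc1, Sectm1b and Col4a5 while it stands with the antagonist groups for Cck, Fgg and Upk3a.

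Some genes lay beyond both sham and EP, so that their level was found in neither sham cells nor cells given EP without an antagonist. EP+TPA cells are a separate case, since 0 genes were called between EP+RU486 and EP+TPA. EP+TPA mice averaged 39.97 for Stc1, 84.55 for Scgb3a1, 2.442 for Npr3 and 4.442 for Rasl12. The 10 firmest on the higher side were Hp, Stc1, Scgb3a1, Npr3, Col9a1, Rasl12, Col4a5, Otoa, Gdpd2 and Prtn3. Stc1 averaged 44.6 in EP+RU486 mice against 9.80 in EP mice and 8.30 in sham mice (EP+RU486 over EP, log2 fold 2.12, adjusted p = 8.11e-06). Scgb3a1 averaged 120 in EP+RU486 mice against 9.67 in EP mice and 3.96 in sham mice (EP+RU486 over EP, log2 fold 3.47, adjusted p = 8.11e-06). Npr3, the clearance receptor of natriuretic peptides, was low throughout, at 2.28 to 4.44 in EP+RU486 mice and 0.257 to 0.608 in sham mice. Its log2 fold was 1.62 with a pseudocount of 1, 2.81 with 0.1 and 0.62 with 5. Rasl12, a small GTPase, averaged 8.42 in EP+RU486 mice, 1.33 in EP mice and 0.925 in sham mice.

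On the lower side the 10 were Oat, Tuba8, Eps8, Abhd11os, Sgms1, Aldh3a1, Nucb2, Abcc8, Ccdc71l and Enho. Oat, the mitochondrial ornithine aminotransferase, was at 10.3, 13.8, 11.6 and 13.1 in EP+RU486 mice and at 25.5, 25.4, 24.8 and 29.99 in sham mice, and it averaged 24.0 in EP mice. Its log2 fold was -1.06 against sham (SE 0.14, adjusted p = 0.00027) and -0.90 against EP (adjusted p = 0.000418). Sgms1, a sphingomyelin synthase, averaged 12.2 in EP+RU486 mice, 24.1 in EP mice and 30.1 in sham mice. Nucb2, the precursor of nesfatin, averaged 10.2 in EP+RU486 mice, 24.1 in EP mice and 25.9 in sham mice. Tuba8, an alpha-tubulin, averaged 2.76 in EP+RU486 mice, 24.2 in EP mice and 16 in sham mice. Because tubulin genes resemble each other, the Tuba8 value is uncertain. Means in EP+TPA mice were 14.66 for Oat, 14.55 for Sgms1, 11.54 for Nucb2 and 3.362 for Tuba8.

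Other genes stayed near the EP level although the receptor was blocked: they were called against sham, and the 95% interval of the difference between EP+RU486 and EP lay within 1 log2 unit of 0. Stat5a averaged 83.0 in EP+RU486 mice, 68.5 in EP mice and 19.8 in sham mice, and F3 averaged 344, 288 and 122 in the same order. Kat2a, a histone acetyltransferase, averaged 14.9 in EP+RU486 mice, 12.9 in EP mice and 7.63 in sham mice. Rcc2, a regulator of chromosome segregation, belonged to this set and was still lower than in EP, at 35.7 in EP+RU486 mice, 48.2 in EP mice and 20.0 in sham mice (EP+RU486 over EP, log2 fold -0.42, adjusted p = 0.0101). Gmds, an enzyme of GDP-fucose synthesis, averaged 51.3 in EP+RU486 mice, 43.9 in EP mice and 30.1 in sham mice. On the lower side stood Fgg, Fam25c, Kcnh1, Cck, Cyb5a, Ccn1, Cdc42ep1, Fgb, Nabp1 and Upk3a. For Fam25c, Fgb and Upk3a, all 4 EP+RU486 mice and 3 of the 4 EP mice were at the bottom of the scale, so a difference between these groups could not show. Cck averaged 15.6 in EP+RU486 mice, 13.1 in EP mice and 129 in sham mice.

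The secreted signals that estradiol and progesterone raise in the gland were not called above sham. Tnfsf11 was at 2.32, 0.886, 1.25 and 0.886 in EP+RU486 mice and at 0.886 to 0.902 in sham mice, and averaged 21.2 in EP mice. Areg was at 19.3, 5.52, 6.35 and 5.38 in EP+RU486 mice and at 11.7 to 33.8 in sham mice, and averaged 227 in EP mice. Wnt4 was at 1.26 to 3.07 in EP+RU486 mice and 3.16 to 6.99 in sham mice, and averaged 17.8 in EP mice. The 2 groups did not overlap in Wnt4, yet the adjusted p was 0.148; it was 0.00753 in a fit of the 2 groups alone. Rspo1 averaged 5.08 in EP+RU486 mice, 68.7 in EP mice and 5.12 in sham mice. The deposited Rspo1 value was within 10% of its lowest, 4.505, in 3 sham mice and 2 EP+RU486 mice. Areg was within 10% of its lowest, 6.024, in 2 EP+RU486 mice and 0 sham mice. The size of both folds against EP may rest on the bottom of the scale, as may the closeness of Rspo1 to sham. The neuropeptide gene Calca was at 38.0 in RU486 mouse 304 and at 3.56 to 3.80 in the other 3, against 3.61 to 3.74 in sham mice and a mean of 106 in EP mice. EP mouse 311 was far below these EP means, at 1.221 for Tnfsf11, 2.329 for Wnt4, 3.919 for Calca, 41.75 for Areg and 21.07 for Rspo1. Its Wnt4 value lay below every sham mouse, while its Areg and Rspo1 values lay above every sham mouse. Tnfsf11 and Calca sat within 10% of their shared lowest values, 0.886 and 3.56, in all 4 sham mice and in 2 and 3 of the EP+RU486 mice in that order, so a difference from sham below that bottom could not show and the size of their folds against EP rests on it. Against EP, the log2 folds were -2.47 for Tnfsf11 (adjusted p = 0.0141), -4.30 for Areg (adjusted p = 0.000157), -2.47 for Wnt4 (adjusted p = 0.00294), -3.12 for Rspo1 (adjusted p = 0.000259) and -2.80 for Calca (adjusted p = 0.0437). Of the 25 RANK and Wnt paracrine genes tested, 2 were higher than in sham and 2 lower, shares near the 4.24% and 6.38% of all genes. The Wnt receptors Fzd8 and Fzd1 rose, at 7.96 and 9.27 in EP+RU486 mice against 3.92 and 4.33 in sham mice (adjusted p = 0.012 and 0.0129). The Wnt inhibitors Sfrp1 and Sfrp2 fell.

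**Figure D4:**
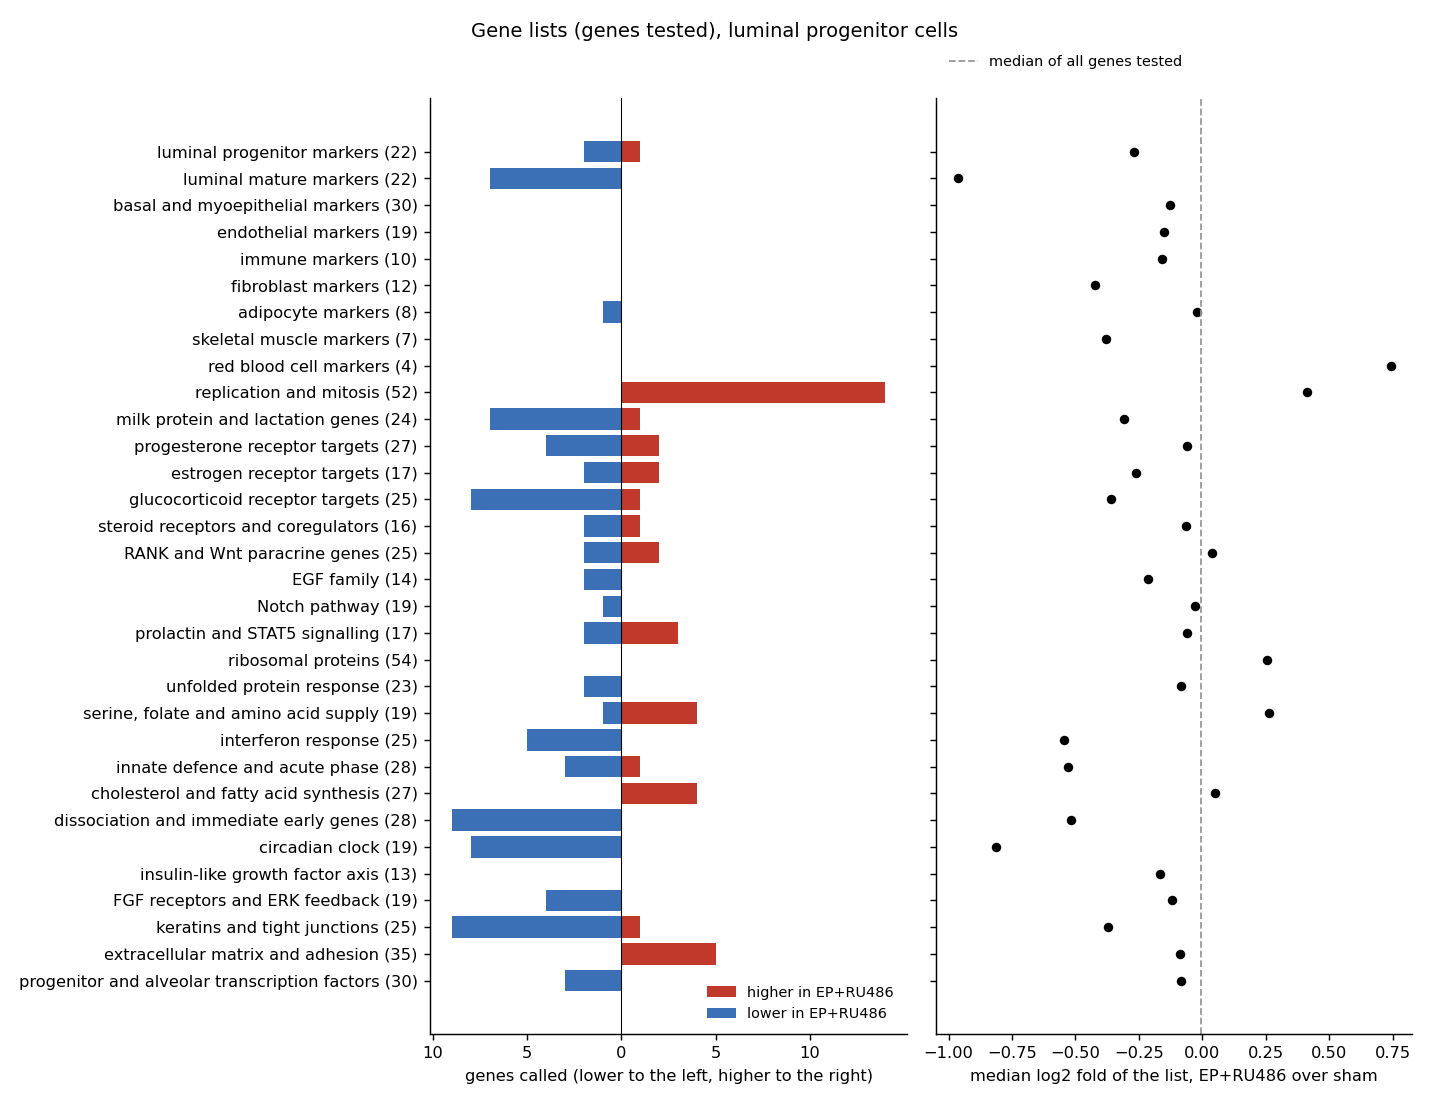
Left, the number of genes of each list called lower (blue, to the left) or higher (red, to the right) in EP+RU486 than in sham LP cells, with the number tested in brackets. Right, the median log2 fold of each list beside that of all genes tested (dashed, -0.007); replication and mitosis has 14 higher and 0 lower, and the circadian clock 0 higher and 8 lower.

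Some replication and mitosis genes were above sham, and most were below EP. Of 52 tested, 14 were called higher than in sham and 0 lower, where 4.24% of all genes were called higher, and the median log2 fold was 0.41. The count depended on the pseudocount: it was 27 with 0.1 (median 0.84) and 7 with 5 (median 0.16). It was 23 in a fit of the 2 groups alone and 28 with quality weights. Mcm2, a subunit of the replicative helicase, was at 10.8, 10.2, 8.13 and 8.54 in EP+RU486 mice and at 4.22, 5.02, 3.95 and 4.67 in sham mice, and averaged 25.6 in EP mice (EP+RU486 over sham, log2 fold 0.92, SE 0.14, adjusted p = 0.000693). Mcm3, of the same helicase, averaged 9.32 in EP+RU486 mice, 23.2 in EP mice and 4.75 in sham mice (log2 fold over sham 0.84, SE 0.16, adjusted p = 0.00292). Stmn1, a microtubule regulator of dividing cells, averaged 25.7 in EP+RU486 mice, 111 in EP mice and 13.0 in sham mice (log2 fold over sham 0.92, SE 0.19, adjusted p = 0.00533). Birc5, the mitotic protein survivin, averaged 2.87 in EP+RU486 mice, 14.6 in EP mice and 0.975 in sham mice. Uhrf1, which couples DNA methylation to replication, averaged 2.70 in EP+RU486 mice, 14.9 in EP mice and 1.08 in sham mice (adjusted p over sham 0.00795, and 0.0892 with a pseudocount of 5).

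Some much used markers of cycling cells were not called against sham, though they were under some alternatives. Mki67, the proliferation antigen Ki-67, was at 0.175 to 0.374 in EP+RU486 mice and at 0.0703 to 0.145 in sham mice, and averaged 1.47 in EP mice (adjusted p over sham 0.147, but 0.0306 with a pseudocount of 0.1 and 0.0366 with quality weights). Top2a, the mitotic topoisomerase, averaged 1.65 in EP+RU486 mice, 7.51 in EP mice and 0.765 in sham mice (adjusted p over sham 0.0908, and 0.0165 to 0.0481 in 4 alternatives). Ccna2, cyclin A2, averaged 2.03 in EP+RU486 mice, 10.5 in EP mice and 1.05 in sham mice (adjusted p over sham 0.0619, and 0.00995 to 0.0247 in 4 alternatives). Ccnd1, cyclin D1, averaged 57.2 in EP+RU486 mice, 56.5 in EP mice and 35.7 in sham mice and was not called (adjusted p = 0.164, and 0.0316 with quality weights). Against EP, 48 of the 52 were called lower in EP+RU486 mice, against 11.8% of all genes. EP over sham called 48 higher, against 16.2% of all genes, and EP+TPA over sham called 0 higher, against 1.8% of all genes. The median log2 fold over sham was 0.41 in EP+RU486 mice and 0.20 in EP+TPA mice. Between EP+RU486 and EP+TPA, 0 of the 52 were called, so these counts do not show a difference between the antagonists. The count of 14 over sham was 7 without sham mouse 310 and 9 without RU486 mouse 304. Mcm6, at 19.9 in EP+RU486 mice and 10.2 in sham mice, was called (adjusted p = 0.0186), but had an adjusted p of 0.0558 without RU486 mouse 304 and of 0.0544 without sham mouse 310.

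**Figure D5:**
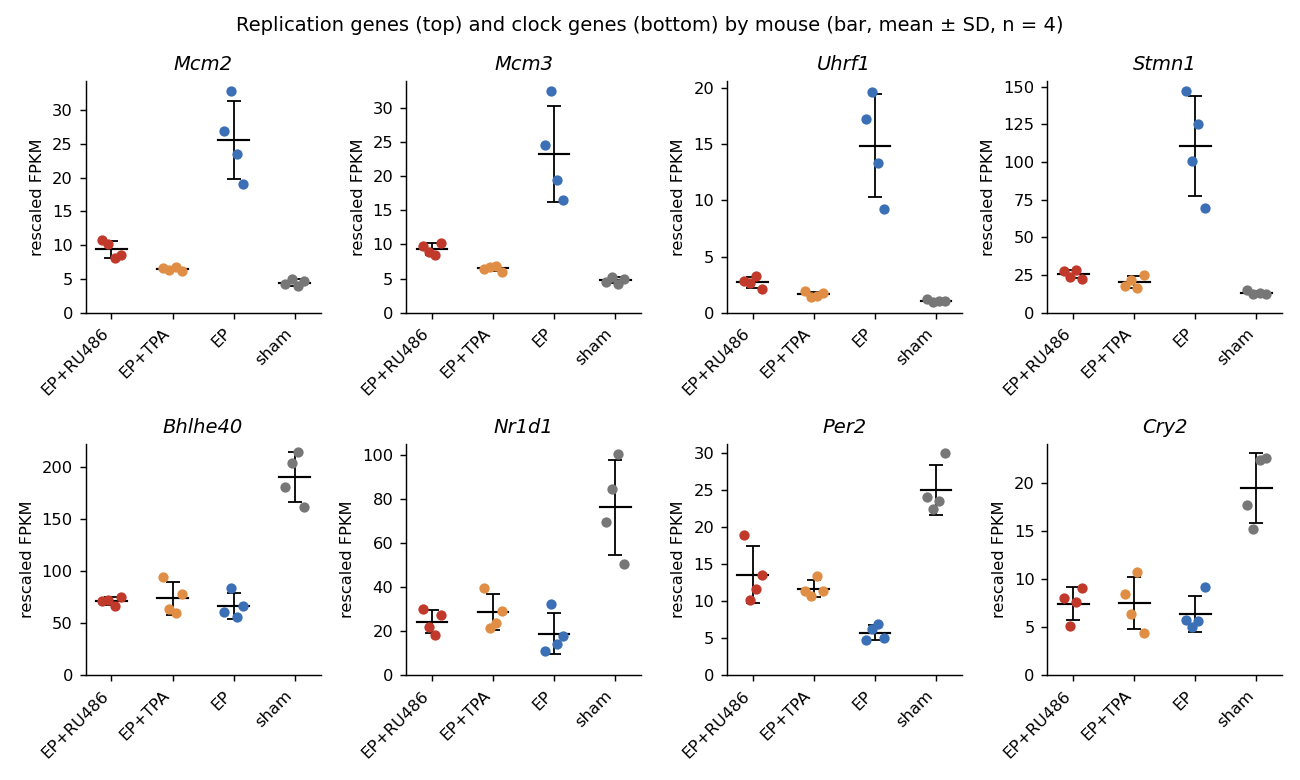
Levels by mouse (points, rescaled FPKM) with mean and SD for 4 replication genes (top) and 4 clock genes (bottom) in EP+RU486, EP+TPA, EP and sham LP cells, 4 mice each. Mcm2, Mcm3, Uhrf1 and Stmn1 are highest in EP and a little above sham in EP+RU486; Bhlhe40, Nr1d1, Per2 and Cry2 are highest in sham.

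The promoter windows of Mcm3 and Mcm6 are shown because they carry the site of E2F factors, the regulators of replication genes at entry into S phase. RefSeq windows of 300 bases on GRCm38.p6, from 250 before to 50 after the start, were matched to members by symbol. The E2F site was searched as TTTGGCGC or TTTCCCGC on both strands and is in capitals. It occurred in 486 of the 27025 genes with a window (1.8%), in 8 of the 42 tested members with a window, and in 5 of the 12 called members with one. A match describes letters in the window only.
Mcm3, chr1:20820263-20820562, minus strand: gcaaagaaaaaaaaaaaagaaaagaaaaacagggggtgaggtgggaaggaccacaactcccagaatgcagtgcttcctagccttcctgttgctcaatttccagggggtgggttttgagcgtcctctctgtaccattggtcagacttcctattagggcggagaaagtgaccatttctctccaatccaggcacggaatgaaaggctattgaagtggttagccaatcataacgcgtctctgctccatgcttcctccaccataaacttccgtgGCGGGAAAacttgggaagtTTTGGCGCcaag
Mcm6, chr1:128359656-128359955, minus strand: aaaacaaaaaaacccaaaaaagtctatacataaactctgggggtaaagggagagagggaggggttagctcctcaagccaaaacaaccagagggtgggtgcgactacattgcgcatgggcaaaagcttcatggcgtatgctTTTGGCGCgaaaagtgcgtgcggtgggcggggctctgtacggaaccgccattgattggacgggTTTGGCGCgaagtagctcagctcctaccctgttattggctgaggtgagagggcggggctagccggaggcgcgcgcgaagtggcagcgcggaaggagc

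Milk protein genes moved in different directions. Of 24 tested, 1 was called higher (Cel) and 7 lower, where 6.38% of all genes were called lower; without RU486 mouse 324 or sham mouse 305, 4 were lower. Csn2, beta-casein, was at 2.69, 5.72, 1.53 and 3.96 in EP+RU486 mice and at 10.2, 93.3, 55.0 and 13.6 in sham mice (log2 fold -2.86, SE 0.65, adjusted p = 0.0129). The sham mice differed widely in this gene, but the lowest of them lay above every EP+RU486 mouse. Csn1s2a, an alpha-casein, averaged 1.78 in EP+RU486 mice and 24.7 in sham mice (log2 fold -2.92, SE 0.53, adjusted p = 0.00316). Csn1s1, another alpha-casein, averaged 9.84 in EP+RU486 mice and 82.6 in sham mice (adjusted p = 0.0248), but had adjusted p values of 0.0682, 0.0787, 0.0654 and 0.081 without RU486 mouse 304, RU486 mouse 324, sham mouse 305 and sham mouse 310 in that order. Plin2, the coat protein of lipid droplets, averaged 158 in EP+RU486 mice and 380 in sham mice (adjusted p = 0.00712), and the folate receptor gene Folr1 averaged 24.3 in EP+RU486 mice and 48.0 in sham mice (adjusted p = 0.00951). The far more abundant Csn3 averaged 2338 in EP+RU486 mice and 2843 in sham mice and was not called (adjusted p = 0.77); it averaged 332 in EP mice. Lactoferrin (Ltf) was at 830 to 1127 in EP+RU486 mice and at 1297 to 3502 in sham mice, and averaged 180 in EP mice (adjusted p over sham 0.0668). The groups did not overlap, and the adjusted p was 0.0411 without sham mouse 305. Related casein genes share sequence, which may have affected how reads were assigned.

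In prolactin and STAT5 signalling, 3 of 17 genes were higher and 2 lower, against 4.24% higher and 6.38% lower among all genes. Beside Stat5a, Stat5b averaged 29.1 in EP+RU486 mice and 16.8 in sham mice (log2 fold 0.77, adjusted p = 0.0209); its adjusted p lay between 0.0505 and 0.0703 without RU486 mouse 304, 308 or 324 or sham mouse 301 or 310. The 2 genes are close copies, so their values are less certain than those of other genes. Ghr, the growth hormone receptor, was at 32.3, 34.9, 29.3 and 35.2 in EP+RU486 mice and at 17.9, 17.2, 17.5 and 18.5 in sham mice (log2 fold 0.85, SE 0.13, adjusted p = 0.0008). Cish, the feedback inhibitor that STAT5 is known to switch on, went the other way. It was at 11.6, 9.36, 9.42 and 9.003 in EP+RU486 mice and at 29.8, 33.1, 29.2 and 27.8 in sham mice (log2 fold -1.52, SE 0.17, adjusted p = 5.59e-05). Prlr, the prolactin receptor, was at 63.2, 42.5, 34.0 and 34.4 in EP+RU486 mice and at 96.0 to 177 in sham mice. Its groups did not overlap, its adjusted p was 0.0557, and 0.0018 to 0.0479 in 5 alternatives.

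The windows of Csn2, Csn1s1 and Cish are shown because these genes fell while Stat5a rose, and each holds the STAT site. It was searched as TTCNNNGAA, which reads the same on both strands, and is in capitals. It occurred in 2582 of the 27025 genes with a window (9.55%). Among milk genes with a window, 4 of the 16 tested and 3 of the 6 called held it. Among prolactin and STAT5 genes with a window, it was in 3 of the 15 tested and 1 of the 5 called. The window of Scgb3a1, which rose, holds the site as well, so the site was not confined to genes that fell. A match describes letters in the window only. Cish held 2 such sites, at and just downstream of its start.
Csn2, chr5:87699376-87699675, minus strand: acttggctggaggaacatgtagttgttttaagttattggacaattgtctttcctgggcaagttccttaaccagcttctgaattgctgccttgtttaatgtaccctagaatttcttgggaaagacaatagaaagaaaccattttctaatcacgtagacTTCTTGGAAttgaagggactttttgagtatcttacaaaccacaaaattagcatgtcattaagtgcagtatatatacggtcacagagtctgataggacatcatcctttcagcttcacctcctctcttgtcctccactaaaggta
Csn1s1, chr5:87665958-87666257, plus strand: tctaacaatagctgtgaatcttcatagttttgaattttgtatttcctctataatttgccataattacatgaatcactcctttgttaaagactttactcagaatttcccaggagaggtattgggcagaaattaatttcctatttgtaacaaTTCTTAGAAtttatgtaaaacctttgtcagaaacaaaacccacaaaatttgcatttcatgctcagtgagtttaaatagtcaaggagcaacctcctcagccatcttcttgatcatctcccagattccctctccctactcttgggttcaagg
Cish, chr9:107296409-107296708, plus strand: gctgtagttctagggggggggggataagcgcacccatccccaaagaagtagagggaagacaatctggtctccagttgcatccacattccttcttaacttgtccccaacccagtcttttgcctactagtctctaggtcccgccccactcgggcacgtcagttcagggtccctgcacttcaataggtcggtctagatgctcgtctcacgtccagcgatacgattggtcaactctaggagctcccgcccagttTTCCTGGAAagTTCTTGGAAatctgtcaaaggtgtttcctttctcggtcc

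Some genes of mature luminal cells fell. Of 22 such markers tested, 0 were higher and 7 lower, where 6.38% of all genes were called lower. The median log2 fold was -0.97, the count was 4 without rescaling and 11 in a fit of the 2 groups alone, and the lower count was 3 without RU486 mouse 308, 324 or 329 or sham mouse 326, and 4 without sham mouse 305. Their summed level was 284 to 455 in EP+RU486 mice and 587 to 1001 in sham mice; the highest EP+RU486 value was that of mouse 304. Cited1, a transcriptional coregulator of hormone-sensing cells, was at 14.5, 10.5, 10.9 and 11.3 in EP+RU486 mice and at 80.5, 117, 42.6 and 137 in sham mice (log2 fold -2.78, SE 0.36, adjusted p = 0.00024). Its deposited value was within 10% of the lowest, 11.65, in 9 of 22 libraries, 2 of them EP+RU486 mice. The size of this fold may therefore rest on the bottom of the scale. Esr1, the estrogen receptor, was at 4.11, 3.04, 2.63 and 2.85 in EP+RU486 mice and at 8.55, 11.6, 10.2 and 16.5 in sham mice (log2 fold -1.59, SE 0.32, adjusted p = 0.00502). Foxa1, the pioneer factor of estrogen receptor binding, averaged 2.94 in EP+RU486 mice and 11.1 in sham mice (adjusted p = 0.0532, and 0.0021 to 0.0457 in 5 alternatives). Pgr, the progesterone receptor, was at 0.310 to 1.41 in EP+RU486 mice and at 0.824 to 1.88 in sham mice, and averaged 4.51 in EP mice; the groups overlapped and the adjusted p over sham was 0.385. Nr3c1, the glucocorticoid receptor, averaged 7.40 in EP+RU486 mice and 7.14 in sham mice (adjusted p = 0.903). The part of mature luminal cells within the sort in these differences was not tested.

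Among targets of the estrogen receptor, 2 of 17 were higher and 2 lower, against 4.24% higher and 6.38% lower among all genes. Ccn5, a secreted matricellular protein, was at 246, 233, 291 and 403 in EP+RU486 mice and at 99.2, 84.2, 100.4 and 90.3 in sham mice (log2 fold 1.61, SE 0.24, adjusted p = 0.000598). Ccn5 averaged 65.9 in EP mice and 265 in EP+TPA mice. Its log2 fold in EP+RU486 over EP was 2.18 (limma adjusted p = 2.13e-05), so it lay above both sham and EP. Rerg, an estrogen-regulated small GTPase, averaged 17.8 in EP+RU486 mice, 12.95 in EP mice and 4.41 in sham mice (log2 fold over sham 1.78, SE 0.35, adjusted p = 0.00483). Among 16 steroid receptors and coregulators, Fkbp4 was higher, and Esr1 and Pgrmc1 were lower.

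Some receptors and feedback genes of growth factor signalling fell. Of 19 FGF receptor and ERK feedback genes, 4 were lower and 0 higher, where 6.38% of all genes were called lower; the median log2 fold was -0.12. Fgfr2 was at 6.33, 6.02, 5.17 and 5.34 in EP+RU486 mice and at 39.9, 40.0, 31.7 and 68.0 in sham mice (log2 fold -2.72, SE 0.37, adjusted p = 0.000362). Fgfr1 averaged 34.6 in EP+RU486 mice, 14.1 in EP mice and 72.8 in sham mice, between the 2 other states (log2 fold over sham -1.05, adjusted p = 0.00328; over EP 1.27, adjusted p = 0.000385). Dusp5, a phosphatase that turns off ERK, averaged 53.2 in EP+RU486 mice and 252 in sham mice (adjusted p = 0.000441). Of 14 EGF family genes, 2 were lower, against the same 6.38%. Errfi1, a feedback inhibitor of the EGF receptor, averaged 75.7 in EP+RU486 mice and 430 in sham mice (log2 fold -2.48, SE 0.33, adjusted p = 0.000303), and the ligand gene Hbegf averaged 18.2 in EP+RU486 mice and 66.9 in sham mice (adjusted p = 0.00257). Of 13 genes of the insulin-like growth factor axis 0 were called, and of 19 Notch pathway genes 1 was lower (Nrarp), a share near the background.

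Several clock genes fell. Of 19 tested, 8 were lower and 0 higher, where 6.38% of all genes were called lower, and the median log2 fold was -0.81. Leaving out 1 mouse gave 7 to 8 lower. Over sham, 13 of the 19 were lower in EP mice and 8 in EP+TPA mice. Among all 11402 genes, 1838 were lower in EP mice and 376 in EP+TPA mice. Compared with EP, 6 of the 19 were higher in EP+RU486 mice and 0 lower, where 9.02% of all genes were higher. Bhlhe40, a repressor within the clock, was at 71.2, 72.9, 66.8 and 75.8 in EP+RU486 mice and at 181, 204, 215 and 162 in sham mice (log2 fold -1.39, SE 0.15, adjusted p = 4.55e-05). Nr1d1, the heme-sensing repressor REV-ERB alpha, was at 29.99, 22.1, 18.2 and 27.4 in EP+RU486 mice and at 69.5, 84.3, 100.5 and 50.4 in sham mice (log2 fold -1.58, SE 0.29, adjusted p = 0.00284). Nr1d2, its close relative, averaged 12.7 in EP+RU486 mice and 25.1 in sham mice. Per2, a period gene of the negative limb, averaged 13.6 in EP+RU486 mice, 5.76 in EP mice and 25 in sham mice (log2 fold over sham -0.86, adjusted p = 0.00328; over EP 1.09, adjusted p = 0.000259). Cry2 averaged 7.49 in EP+RU486 mice and 19.5 in sham mice. Per1 averaged 6.33 in EP+RU486 mice and 12.5 in sham mice (adjusted p = 0.0156, and 0.0611 without sham mouse 310). The hour at which tissue was taken is not in the labels, and its part was not tested.

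Some targets of the glucocorticoid receptor and some immediate early genes fell. Of 25 glucocorticoid receptor targets, 8 were lower and 1 higher (Mertk), where 6.38% of all genes were called lower, and the lower count was 4 without sham mouse 310 and 5 without RU486 mouse 324 or sham mouse 305. Per1 and Per2 are among the 8 and are counted with the clock as well. Over sham, 6 of the 25 targets were lower in EP mice and 5 in EP+TPA mice. Among all 11402 genes, 1838 were lower in EP mice and 376 in EP+TPA mice. Between EP+RU486 and EP+TPA, 0 of the 25 were called, so these falls are not particular to EP+RU486. Sgk1, a kinase that controls sodium channels, was at 97.3, 59.9, 155 and 159 in EP+RU486 mice and at 371, 238, 282 and 469 in sham mice (log2 fold -1.58, SE 0.29, adjusted p = 0.00283). Mt1, a metal-binding metallothionein, was at 282, 310, 308 and 297 in EP+RU486 mice and at 474, 707, 619 and 581 in sham mice (log2 fold -0.98, SE 0.21, adjusted p = 0.00818); it averaged 605 in EP mice. Fkbp5, a much used readout of glucocorticoid and progesterone receptor activity, averaged 7.76 in EP+RU486 mice, 17.3 in EP mice and 9.57 in sham mice (adjusted p over sham 0.533, over EP 0.0122). Of 27 progesterone receptor targets, 2 were higher (Stat5a and Stat5b) and 4 lower, against 4.24% higher and 6.38% lower among all genes. With 1 mouse left out, 1 to 2 were higher and 2 to 4 lower.

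Of 28 immediate early genes, which also rise when tissue is dissociated, 9 were lower and 0 higher, with a median log2 fold of -0.52. Among all genes, 6.38% were called lower and 4.24% higher. Over sham, 19 of the 28 were lower in EP mice, as were 1838 of all 11402 genes, and 6 in EP+TPA mice, as were 376 of all genes. Compared with EP, 5 of the 28 were higher in EP+RU486 mice and 0 lower, where 9.02% of all genes were higher. Btg2, an antiproliferative gene, was at 35.8, 42.9, 38.4 and 66.6 in EP+RU486 mice and at 87.8, 212, 162 and 172 in sham mice (log2 fold -1.74, SE 0.28, adjusted p = 0.00118). Klf6 averaged 173 in EP+RU486 mice and 351 in sham mice, Jund averaged 194 and 382, and Zfp36, which destabilizes inflammatory messenger RNAs, averaged 224 and 451 in the same order; each was called. Whether handling of the cells had a part in these differences was not tested.

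Several keratin and junction genes fell and a few matrix genes rose. Of 25 keratin and tight junction genes, 9 were lower and 1 higher, against 6.38% lower and 4.24% higher among all genes. The lower count was 3 without sham mouse 301 or 310, 4 without RU486 mouse 304 or 308, and 5 without RU486 mouse 324 or 329 or sham mouse 326. Krt18, the keratin of luminal cells, was at 1439, 1112, 1780 and 1862 in EP+RU486 mice and at 4887, 2442, 3287 and 3202 in sham mice (log2 fold -1.14, SE 0.26, adjusted p = 0.012). Krt80 averaged 3.58 in EP+RU486 mice and 22.9 in sham mice (adjusted p = 0.000342), and the claudin gene Cldn4 averaged 42.2 in EP+RU486 mice and 302 in sham mice (adjusted p = 0.00721). Cldn10, another claudin, was the member that rose, at 77.5 in EP+RU486 mice and 39.9 in sham mice (adjusted p = 0.0138, and 0.0518 without sham mouse 310). Of 35 matrix and adhesion genes, 5 were higher and 0 lower, where 4.24% of all genes were called higher (3 higher without RU486 mouse 308). Tnc, the matrix glycoprotein tenascin C, was at 89.2, 94.8, 61.5 and 44.4 in EP+RU486 mice and at 6.35, 37.6, 8.23 and 7.10 in sham mice (log2 fold 2.54, SE 0.54, adjusted p = 0.00835). Sham mouse 305 was high, but still below every EP+RU486 mouse. Lamb1, a laminin chain, averaged 11.6 in EP+RU486 mice and 6.17 in sham mice (adjusted p = 0.0137, and 0.0512 without RU486 mouse 308).

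Col4a5 and Col4a6, chains of basement membrane collagen, rose side by side and lie head to head on the X chromosome. Col4a5 was at 16.4, 17.9, 16.6 and 13.4 in EP+RU486 mice and at 5.71, 6.15, 5.12 and 7.04 in sham mice, and averaged 5.02 in EP mice (log2 fold over sham 1.29, SE 0.16, adjusted p = 0.000184). Col4a6 was at 13.9, 14.6, 14.1 and 9.35 in EP+RU486 mice and at 4.43, 3.89, 3.99 and 4.77 in sham mice, and averaged 2.73 in EP mice (log2 fold over sham 1.39, SE 0.27, adjusted p = 0.00377). Their RefSeq windows on GRCm38.p6 are shown because the genes are known to share a promoter region; the starts lie 1343 bases apart on opposite strands. Neither window holds the E2F site, the STAT site or the E-box CACGTG, so there are no capitals.
Col4a5, chrX:141475169-141475468, plus strand: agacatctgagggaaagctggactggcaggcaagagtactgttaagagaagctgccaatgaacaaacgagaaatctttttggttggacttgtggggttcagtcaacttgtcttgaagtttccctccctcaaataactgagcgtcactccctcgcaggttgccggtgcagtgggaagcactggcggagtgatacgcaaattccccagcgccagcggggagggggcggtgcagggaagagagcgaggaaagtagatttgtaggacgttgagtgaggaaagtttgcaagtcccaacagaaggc
Col4a6, chrX:141474027-141474326, minus strand: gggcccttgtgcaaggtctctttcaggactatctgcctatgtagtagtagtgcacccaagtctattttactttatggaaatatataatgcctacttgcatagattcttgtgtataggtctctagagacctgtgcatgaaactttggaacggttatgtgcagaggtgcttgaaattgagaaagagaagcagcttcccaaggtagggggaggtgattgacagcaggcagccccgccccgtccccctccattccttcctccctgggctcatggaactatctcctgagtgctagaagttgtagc

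The remaining lists held defence, interferon, ribosomal and metabolic genes, and among all genes 4.24% were called higher and 6.38% lower. In innate defence and acute phase, 1 of 28 was higher and 3 lower, with a median log2 fold of -0.53. The lower count was 1 to 4 with 1 mouse left out and 6 in a fit of the 2 groups alone. Lbp, the lipopolysaccharide-binding protein, averaged 154 in EP+RU486 mice and 74.8 in sham mice (adjusted p = 0.00435). The bacterial sensor Tlr2 averaged 7.45 in EP+RU486 mice and 17.8 in sham mice (adjusted p = 0.0115). Lcn2, lipocalin 2, averaged 2382 in EP+RU486 mice, 572 in EP mice and 2764 in sham mice, and Cd14, a co-receptor for lipopolysaccharide, averaged 274, 102 and 484 in the same order. Neither was called over sham (adjusted p = 0.868 and 0.241), and both were higher than in EP (adjusted p = 0.00111 and 0.00789). Of 25 interferon response genes 5 were lower and 0 higher, against 6.38% lower among all genes, and 24 had a negative log2 fold (median -0.55). The lower count was 11 in a fit of the 2 groups alone, 14 with quality weights and 1 without rescaling. It was 0 without sham mouse 310 and 8 without RU486 mouse 329, and 1 or 2 without any other mouse except sham mouse 301. In cholesterol and fatty acid synthesis 4 of 27 were higher (2 without RU486 mouse 308 or sham mouse 310), among them Elovl6 and Fasn, which averaged 3.88 and 18.1 in EP+RU486 mice against 1.82 and 10.6 in sham mice (adjusted p = 0.00351 and 0.00632). In serine, folate and amino acid supply 4 of 19 were higher, against 4.24% of all genes, and 1 lower; the higher count was 0 to 2 whichever mouse was left out. Of 23 unfolded protein response genes 2 were lower. Of 30 progenitor and alveolar transcription factors 3 were lower, among them Elf3, at 69.3 in EP+RU486 mice and 160 in sham mice (adjusted p = 0.00317). For this list the lower count was 1 to 3 with 1 mouse left out. A fit of the 2 groups alone called 7 lower and 2 higher. Elf5, the alveolar factor, averaged 24.8 in EP+RU486 mice, 12.2 in EP mice and 26.2 in sham mice (adjusted p over sham 0.939, over EP 0.0231). Kit averaged 45.5 in EP+RU486 mice and 73.4 in sham mice without overlap, and was not called (adjusted p = 0.27, and 0.0112 in a fit of the 2 groups alone). Of 54 ribosomal protein genes 0 were called, although all 54 had a positive log2 fold, with a median of 0.26. Without rescaling, 15 were higher (median 0.45), and in a fit of the 2 groups alone 9 were.

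Markers of other cell types gave few calls. Of 30 basal, 19 endothelial, 10 immune, 12 fibroblast, 7 skeletal muscle and 4 red blood cell markers tested, 0 were called in any list. Of 8 adipocyte markers 1 was lower (Lipe), where 6.38% of all genes were called lower. Summed endothelial markers were 313 to 476 in EP+RU486 mice and 377 to 635 in sham mice, and summed basal markers 712 to 839 and 751 to 928 in the same order. Summed immune markers were 46.7 to 137 in EP+RU486 mice and 35.0 to 263 in sham mice, where Ptprc stayed under 1 in every mouse. Summed red blood cell markers were 219 and 298 in RU486 mice 304 and 329, 31.9 and 37.8 in the other EP+RU486 mice, and 37.3 to 87.1 in sham mice. The part of these cells in the results was not tested.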

How the data were processed

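RNA from sorted cells was amplified as full-length complementary DNA and sequenced as read pairs, per the labels' protocols. The tools listed in the submitters' processing notes are Cufflinks, DESeq2 and STAR; the build is mm9, and neither versions nor order are given. The values deposited by the authors are on the FPKM scale; they are not whole numbers. From the values, each gene had been shifted and rescaled within sets of libraries, with negative values set to 0; the LP libraries share a set with 6 stem cell libraries. The bottom of a gene's scale can therefore lie above 0 (9104 symbols), and depth is unknown.

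From these values, 27 date-like symbols were left out and 21980 used. Libraries were rescaled by median-ratio factors above each gene's shared lowest value. Genes needed a value of at least 1 in at least 3 LP libraries. At least 3 LP libraries also had to lie above the gene's shared lowest value. limma 3.58.1 (R 4.3.3), with trend and robust moderation, was fitted to log2(value + 1) of all 16 LP libraries in 4 groups, and was tested on simulated data. Adjusted p values are Benjamini-Hochberg over all genes tested. Strand was not stated, so overlapping or antisense genes cannot be separated.

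Named genes were the 15 higher and 15 lower with the smallest p (at least 2-fold, no overlap, mean of at least 10 in the higher group), the 4 smallest p of each described list, a fixed set of hormone, lineage and cycle genes, and the 10 firmest each way beyond both sham and EP and near EP. Members and lists were chosen with earlier results of these data known. Alternatives varied the pseudocount (0.1 and 5), filter, scaling, weights, moderation, groups fitted and mice. Older symbols were matched to current ones, and 3 list members without a row (Hbb-bs, Hmgcs1 and Tff3) were not used here.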

Additional observations from a re-analysis of the deposited data

Results flagged for a closer look

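Within groups of 4 mice, 22 of 224 groups of values had 1 mouse that stood apart from the other 3 by Dixon's test at the 95% level, where chance gives about 1 in 20. RU486 mouse 304 was the high one in 7 of them. It had 11770 for Trf (transferrin), 37.97 for Calca, 19.32 for Areg, 3.069 for Wnt4, 4.136 for Foxa1, 80.01 for Gata3 and 11.59 for Cish. The other 3 EP+RU486 mice were at the shared lowest value of 288.7 for Trf, at 3.559 to 3.801 for Calca and at 5.383 to 6.354 for Areg. The summed mature luminal markers of mouse 304 were 455, against 284 to 297 in the other EP+RU486 mice.

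RU486 mouse 329 stood low for Elf5 (22.06), Mki67 (0.1752) and Col4a6 (9.347), and high for Fzd8 (9.66) and Elf3 (89.73). Mouse 324 was low for Lcn2 (2114), and mouse 308 for Klf6 (140.9). Among sham mice, 326 was high for Tspan1 (45.56), Oat (29.99) and Eps8 (11.6) and low for Tnfsf11 (0.8859). Mouse 305 was high for Tnc (37.58, with the others at 6.348 to 8.233) and Ccna2 (1.108), mouse 310 for Sectm1b (8.102), and mouse 301 for Trf (11720).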

How the results depend on the processing

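Of 1896 recomputed folds of 112 named genes, 1839 kept their direction and their side of the threshold, and 83 of the 90 called genes stayed called in every alternative that tested them. The exceptions were Uhrf1, Mcm6, Csn1s1, Stat5b, Per1, Cldn10 and Lamb1, whose values stand in the report. Many named genes were chosen for small p values in this same comparison, so the 83 do not measure how stable the calls are in general. With 1 mouse left out, 644 (without sham mouse 310) to 937 (without sham mouse 305) of all 1210 called genes stayed called in the same direction. For EP+RU486 against sham, library quality weights gave 2644 calls and a fit of the 2 groups alone 1984, and leaving out 1 mouse gave 653 to 1048. For EP+RU486 against EP, a fit of the 2 groups alone gave 1574 calls and the stricter filter 1451 of 6845 genes, against 2379 of 11402. EP+RU486 against EP+TPA gave 0 calls under each alternative run. The causes were not tested, apart from the stricter filter, which tests fewer genes.

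Directions turned for genes that were not called. Without rescaling, the log2 fold was 0.15 for Rspo1, 0.13 for Elf5 and 0.040 for Lcn2; for Rspo1 it was 0.034 with upper-quartile factors and 0.0082 with quality weights. With 1 mouse left out, the log2 fold ran from -0.065 to 0.13 for Nr3c1, from -0.082 to 0.069 for Rspo1, from -0.00028 to 1.03 for Calca, from -0.15 to 0.047 for Elf5 and from -0.33 to 0.062 for Lcn2. Without rescaling, 1 Notch pathway gene and 1 unfolded protein response gene were higher and 0 lower, against 0 higher with 1 and 2 lower. A pseudocount of 0.1 or 5 moved the log2 fold by over 1.5 times for 17 called genes of low level: Chst8, Gdpd2, Clip4, Sfrp2, Npr3, Rasl12, Tuba8, Eps8, Esr1, Uhrf1, Mcm2, Mcm3, Birc5, Csn1s2a, Fzd8, Fzd1 and Elovl6. Mcm2, for instance, had 1.05 with 0.1 and 0.60 with 5. No paired analysis was possible because the groups compared came from different mice and share no replicate number.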

Other observations

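Trf, the iron carrier transferrin, was chosen after its values were seen, since it was the most abundant gene of the sham mice among those with large differences that were not called. It was at 11770 in RU486 mouse 304 and at the shared lowest value of 288.7 in the other 3 EP+RU486 mice, against 8687 to 11720 in sham mice. In EP+TPA mice it was likewise at 288.7 in 3 mice and at 11380 in mouse 336, and in EP mice at 619 to 7819. The log2 fold over sham was -3.70 (SE 1.30, limma adjusted p = 0.0849), and -5.04 without RU486 mouse 304 (adjusted p = 0.0145). A level at the shared lowest value is the bottom of the deposited scale and not a measured amount.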
